A study of Gallus gallus with 7 samples.

Results

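Tfap2B was pulled down from chicken vagal neural crest cells at Hamburger and Hamilton stage 18 (HH18) and set against input chromatin of the same stage, over the 13888 regions of the deposited chromatin table that lie on placed chromosomes, out of 25469 regions in all. The members were the placed regions, chosen within the deposited set by chromosome name and not by their signal, and 13885 of them passed the filter on low reads. How the deposited set itself was called, and whether by signal in these libraries, is not stated. The 2 tfap2B libraries came from wild-type embryos electroporated at HH8 with an E2:citrine reporter, with dissociated cells sorted for fluorescence. The tagged factor was delivered by plasmid with an Avi tag and the enzyme BirA, and biotinylated chromatin was taken on streptavidin beads. The 2 input libraries carried the same labels for stage, sorted cells and reporter. The 2 sox10 pull-down libraries, made in the same way with the other tagged factor, entered the fit and are given beside the results. None of these libraries was a pull-down without a tagged factor, and the origin of the replicates in separate cultures or animals is not stated, which leaves p-values as a measure of the spread between samples that may be technical. A single HH10 RNA library, from NC2:citrine sorted cells electroporated at HH4, was used to give the level of nearby genes at an earlier stage.

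The AP-2 family, to which tfap2B belongs, consists of transcription factors that bind DNA as dimers at GC-rich palindromic sites, in promoters and in distal enhancers. In vertebrate embryos AP-2 factors act at the neural plate border and in neural crest, where they are known to help specify the crest and to keep it alive as it migrates. Vagal crest arises at the level of the hindbrain and gives the enteric nervous system as well as parts of the heart outflow and pharyngeal mesenchyme. Input is sheared chromatin that skips the pull-down, so a region's input signal shows how readily it was recovered, amplified and mapped without any selection.

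Reads in placed regions numbered 2519768 and 877598 in tfap2B replicates 1 and 2, 1557936 and 861234 in sox10 replicates 1 and 2, and 3586313 and 8585039 in input replicates 1 and 2. Signal is given in scaled reads, which are whole reads multiplied by 1 constant per library, as deposited by the authors. Placed medians were 141 and 121 scaled reads for tfap2B, 124 and 122 for sox10, and 106 and 206 for input. No listed value was below 1 read, and a value of 1 read can therefore stand for 0 or 1 read, which corresponds to 0.695 and 0.363 scaled reads in the inputs. Gene identifiers could not be paired with symbols, since 0 of 24881 matched the RefSeq table at hand, so regions are named by position (galGal5) and no marker check of the sorted cells was made.

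Tfap2B signal was higher than input in 1418 placed regions and lower in 1343, which is 10.2% and 9.67% of the regions tested (limma on log2(scaled reads + 1), Benjamini-Hochberg adjusted p under 0.05). The 1418 higher regions were mostly intergenic (690, 48.7%) or intronic (488, 34.4%). They also held 66 exonic regions (4.65%) and 174 within 1 kb of a transcription start site (TSS, 12.3%). Of all tested placed regions, 31.1% were intergenic, 13.0% intronic, 7.09% exonic and 48.9% within 1 kb of a TSS. The median distance of the higher regions from the TSS was 15.7 kb, against 1.13 kb for all tested placed regions. The 1343 lower regions held 491 promoters (36.6%), 285 exonic (21.2%), 252 intronic (18.8%) and 315 intergenic regions (23.5%). Libraries of the groups did not overlap at any called region, but the same was true of 23.2% of all tested regions on the higher side and 31.9% on the lower side.

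The level of the input, more than that of tfap2B, separated the called regions. Median signal in the 1418 higher regions was 94.0 and 99.96 scaled reads in tfap2B, below the placed medians, and 202 and 246 in sox10, against 3.47 and 1.09 in input. In the 1343 lower regions it was 96.6 and 106 in tfap2B, 113 and 105 in sox10, and 489 and 422 in input. Thus the tfap2B medians of higher and lower regions were close to each other, while those of the inputs lay far apart. The edgeR quasi-likelihood test on whole reads called 1168 placed regions higher (8.41%) and 535 lower (3.85%), of which 1095 and 535 were also called by limma. The split between higher and lower moved with the scaling: higher regions were 51.4% of those called as deposited, 66.9% with TMM factors (1597 higher and 790 lower), 70.9% with DESeq2 size factors (1669 and 684), 78.8% after quantile normalization, tried after seeing the data (1979 and 534), and 85.0% with total reads (2250 and 398). These scalings moved the median log2 difference of all placed regions, -0.09 as deposited, to between 0.17 and 0.70. The counts also moved with single libraries. Without sox10 replicate 1 they were 744 higher and 595 lower, and without sox10 replicate 2 they were 751 and 629. Without input replicate 1 they were 2323 and 3003, and without input replicate 2 they were 3860 and 1845. With either tfap2B library left out, its group had 1 library, which was assumed to vary like the other groups, and limma called 0 regions in both directions, the smallest adjusted p being 0.066 without replicate 1 and 0.0576 without replicate 2. At an unadjusted p under 0.05 it then gave 1369 higher and 1831 lower placed regions without replicate 1, and 1313 higher and 1549 lower without replicate 2, and no other tool was run on these subsets.

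**Figure D1:**
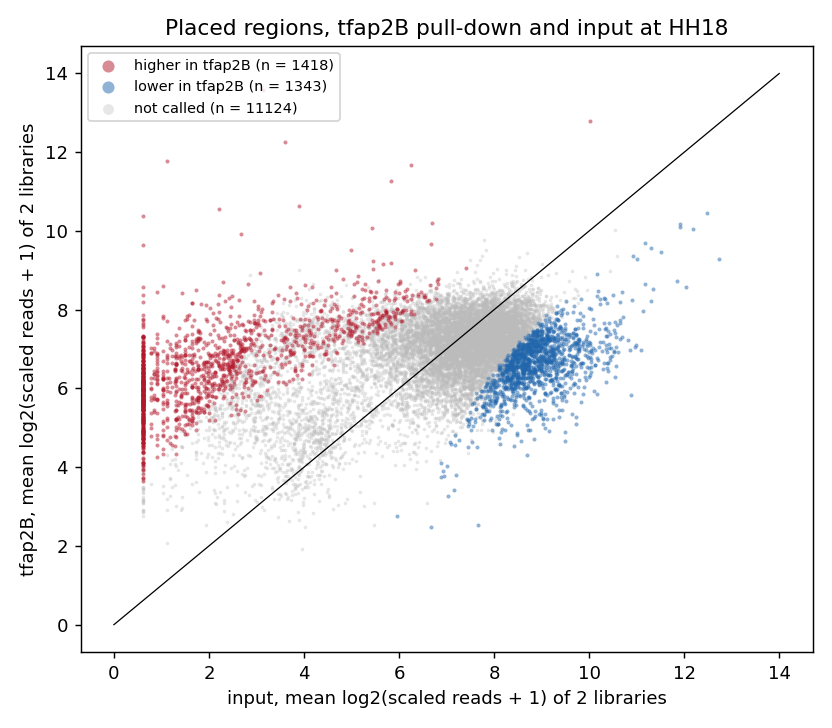
Each point is a placed region, with the mean log2(scaled reads + 1) of the 2 input libraries on the horizontal axis and of the 2 tfap2B libraries on the vertical axis. The 1418 regions called higher spread to the left, at low input, and the 1343 called lower sit to the right at high input, while only a few points rise above the cloud on the tfap2B axis.

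Because low input entered so many calls, the higher regions were also described by their input reads, which are part of the same contrast and so carry no test. In 456 of the 1418 regions both inputs had at most 3 reads. There the tfap2B medians were 51.0 and 68.7 scaled reads, the sox10 medians 207 and 260, and 9 regions were promoters. These 456 were 92.5% of the 493 tested placed regions with such input, while 10.2% of all tested placed regions were called higher. All 493 together also held 9 promoters (1.83%). In 325 of the 1418 both inputs had at least 10 reads, which was 2.75% of the 11821 tested placed regions with such input. In these 325 the medians were 208 and 187 scaled reads in tfap2B, 184 and 192 in sox10, and 28.5 and 31.9 in input. This group stood above the placed medians of both tfap2B libraries. It held 100 promoters, or 30.8%, 132 intergenic (40.6%), 75 intronic (23.1%) and 18 exonic regions (5.54%), and the median TSS distance was 6.03 kb. Of the 11821 tested regions with such input, 54.8% were promoters, 28.1% intergenic, 9.53% intronic and 7.56% exonic. Their median TSS distance was 0.649 kb. EdgeR called 254 of the 325. Of the tested placed regions in neither input group, 637 of 1571 were called higher (40.5%).

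High tfap2B signal was rare. In all, 64 placed regions reached at least 3 times the library's placed median in both tfap2B libraries, against 170 for both sox10 libraries and 247 for both inputs. At 10 times the median the counts were 6, 9 and 8. These 64 regions were chosen by tfap2B signal, which is part of the contrast, so their calls carry no test. Of the 64, 23 (35.9%) were called higher than input, 12 (18.75%) lower and 29 neither. Over all tested placed regions the shares were 10.2% higher and 9.67% lower. By edgeR 13 of the 64 were higher, all among the 23, and 0 were lower. Its shares over all tested placed regions were 8.41% higher and 3.85% lower. By position 33 were intergenic (51.6%), 16 promoters (25.0%), 10 exonic (15.6%) and 5 intronic (7.81%). The same shares over all tested placed regions were 31.1%, 48.9%, 7.09% and 13.0%. The 12 that were lower had medians of 811 and 707 scaled reads in tfap2B, 805 and 824 in sox10, and 3574 and 2159 in input. These places were high in every library. The top 1% of placed regions by signal, 139 in each library, shared 55 regions between the tfap2B replicates (39.6% of each list), 93 between the sox10 replicates (66.9%) and 68 between the inputs (48.9%).

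Among regions called higher, the strongest in the weaker tfap2B library lay over an exon of ENSGALG00000016680, on chromosome 3 from 108710618 to 108711118. Tfap2B replicates 1 and 2 had 18945 and 7940 scaled reads there, sox10 had 323 and 339, and input had 56.3 and 0.363. The tfap2B libraries thus lay far above all the others, although only 1 read was listed in input replicate 2. The log2 difference was 10.44 ± 1.44 (SE, limma adjusted p = 0.00727). It was 7.74 without input replicate 2 and 13.14 without input replicate 1, and edgeR did not call the region (adjusted p = 0.0565, with 2.76e-09 to 0.066 over all alternatives).

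That gene runs on the minus strand of chromosome 3 from 108690400 to 108715816 and holds 5 placed regions, all of them exonic and called higher. The region at its 3′ end, 108690314 to 108690814, had 5451 and 2264 scaled reads in tfap2B, 130 and 192 in sox10, and 0.695 and 1.81 in input. The difference was 10.65 ± 0.66 on the log2 scale (SE, limma adjusted p = 0.00559). The other 3, starting at 108692806, 108695387 and 108697580, had between 329 and 2131 scaled reads in tfap2B, between 98.3 and 192 in sox10, and between 0.363 and 24.3 in input. In these 5 regions the lower tfap2B library exceeded the higher sox10 library. The 2 placed regions 5′ of the gene, at 108718482 and 108722451, did not pass the test, with log2 differences of 1.67 and 0.67 (limma adjusted p = 0.13 and 0.546). The first of these had 97.5 and 106 scaled reads in tfap2B, 105 and 166 in sox10, and 17.4 and 55.9 in input. Whether sequence of the electroporated constructs contributed reads to exonic regions was not tested. At HH10 this gene had 253 CPM.

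A promoter region 0.19 kb from a TSS on chromosome 14, 4195087 to 4195587, had 10175 and 4894 scaled reads in tfap2B, 2132 and 10550 in sox10, and 1740 and 615 in input. The gene with that start had the highest count of all at HH10, 5398 CPM. Here every library was high, and the log2 difference of 2.77 ± 0.86 (SE, limma adjusted p = 0.0465) did not pass in edgeR (adjusted p = 0.262, with 0.00457 to 0.262 over all alternatives).

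An intergenic region on chromosome 1, 153949552 to 153950052, had 5993 and 4015 scaled reads in tfap2B, 3627 and 9605 in sox10, and 83.4 and 0.726 in input (log2 difference 8.67 ± 1.50, SE, limma adjusted p = 0.00870). That difference was 5.86 without input replicate 2 and 11.47 without input replicate 1, and edgeR did not call it (adjusted p = 0.0814, with 5.20e-06 to 0.0814 over all alternatives). Another promoter, on chromosome 2 at 49766513 to 49767013, had 2591 and 4171 in tfap2B, 2096 and 4282 in sox10, and 173 and 32.3 in input. Its log2 difference was 5.43 ± 0.77 (SE, limma adjusted p = 0.00727). Tfap2B and sox10 signals overlapped at both of these places. The gene that starts in the chromosome 2 promoter region, ENSGALG00000034312, runs from 49766723 to 49766918. It thus lies wholly within that region, and also inside ENSGALG00000031713.

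The exonic region of ENSGALG00000012290 on chromosome 1, 51096274 to 51096774, stood out in both pull-downs but in unequal replicates. It had 6041 and 1025 scaled reads in tfap2B, 4911 and 21446 in sox10, and 91.7 and 33.7 in input (log2 difference 5.45 ± 0.98, SE, limma adjusted p = 0.00930). EdgeR did not call it (adjusted p = 0.0872). In both sox10 libraries it held the largest value of all placed regions. Also on chromosome 1, at the start of another gene, a promoter region at 51067475 to 51067975 had 1022 and 910 in tfap2B, 537 and 873 in sox10, and 29.2 and 0.363 in input. At HH10 ENSGALG00000012290 had 818 CPM, rank 80 of all genes.

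Of the 10 regions named for the largest tfap2B signal among those called higher, with 1 region for each nearest gene, 3 were exonic, 3 promoters, 3 intergenic and 1 intronic, with log2 differences of 2.77 to 10.65. EdgeR called 4 of them. Over the 44 named regions called by limma, leaving out 1 tfap2B or input library shifted the log2 difference. Shifts larger than a 1.5-fold change in signal were counted. There were 30 such regions for either input, with shifts of up to 2.81 on the log2 scale. For either tfap2B library there were 13, with shifts of up to 2.00, and no difference changed sign. Leaving out either sox10 library gave shifts of 0, since sox10 entered only the estimate of the spread. The intronic one of the 10, on chromosome 2 at 89553298 to 89553798, had inputs at 0.895 and 0.522 times their placed medians. It had 937 and 698 scaled reads in tfap2B, 405 and 608 in sox10, and 95.2 and 108 in input (log2 difference 2.98 ± 0.42, SE, limma adjusted p = 0.00727).

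**Figure D2:**
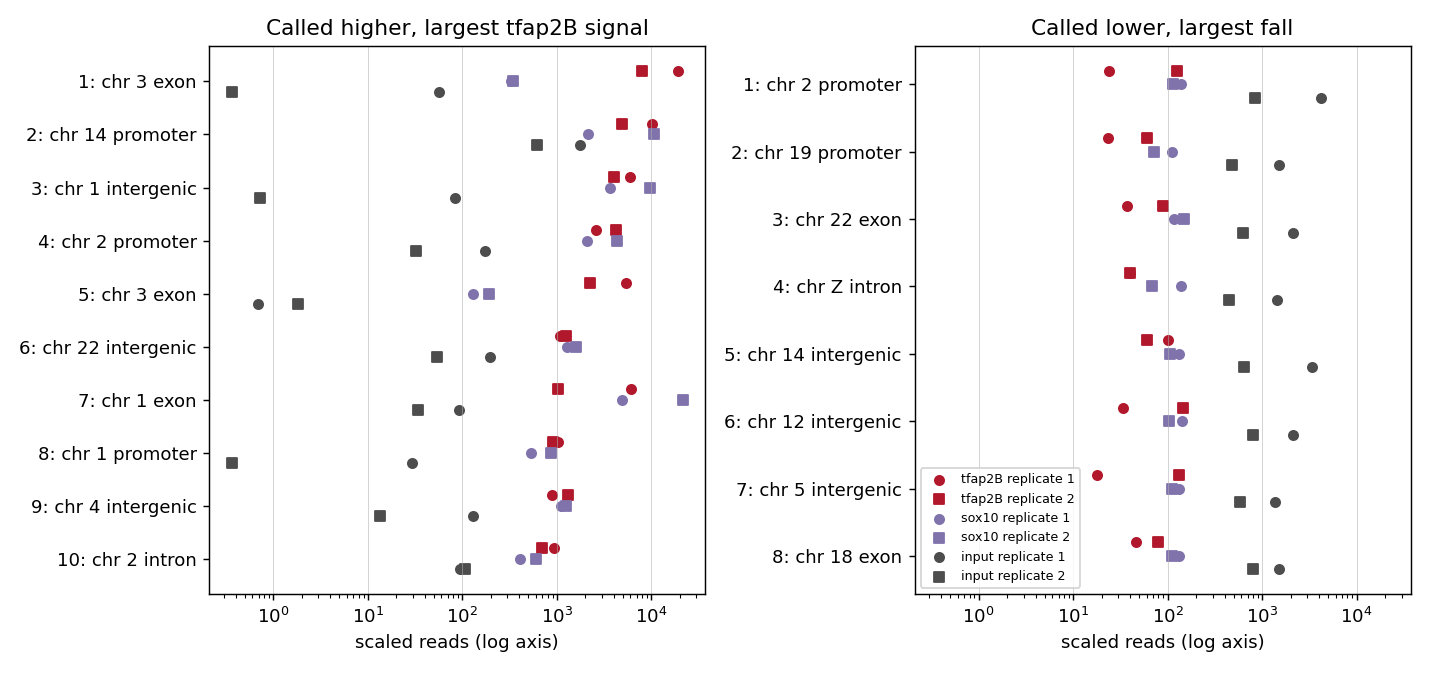
Scaled reads on a log axis for each library at the 10 regions called higher with the largest value in the weaker tfap2B library, 1 for each nearest gene (left). The 8 called lower with the largest fall, among those with mean log2 signal at or above the placed median, are on the right. Circles are replicate 1 and squares replicate 2, and only at the 2 exonic regions of chromosome 3 do tfap2B points lie far to the right of sox10 points.

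Ranking by log2 difference among regions with at least 10 reads in each input gave 8 regions with differences of 4.35 to 5.45, and edgeR called 6 of them. These were 4 intergenic, 2 promoter, 1 intronic and 1 exonic region, and 3 of them are among the 10 above. A region in an intron on chromosome 14, 4209488 to 4209988, had 372 and 254 scaled reads in tfap2B, 488 and 409 in sox10, and 8.34 and 14.5 in input (log2 difference 4.68 ± 0.56, SE, limma adjusted p = 0.00727). It lies 3.02 kb downstream of the TSS of a gene with 513 CPM at HH10. On chromosome 1, the intergenic region at 1412064 to 1412564 had 265 and 142 in tfap2B, 145 and 138 in sox10, and 7.64 and 3.99 in input. In only 4 of the 8 did both tfap2B libraries reach 3 times their placed median.

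Promoters called higher numbered 174, at 174 of the 6702 genes that had a promoter region, and 490 genes had a promoter region called lower. Of the 6787 promoter regions 2.56% were called higher and 7.23% lower, against 10.2% and 9.67% of all tested placed regions. Among promoters called higher with at least 10 reads in each input, the largest difference after the promoter on chromosome 2 was on chromosome Z, 34407377 to 34407877. It had 336 and 431 scaled reads in tfap2B, 443 and 393 in sox10, and 20.8 and 6.89 in input (log2 difference 4.86 ± 0.62, SE, limma adjusted p = 0.00727). Promoters at 53947376 of chromosome 1, 984058 of chromosome 5 and 68204830 of chromosome Z differed by 4.01, 3.84 and 3.68. The one on chromosome 5 had 136 and 239 scaled reads in tfap2B, 179 and 154 in sox10, and 21.5 and 6.17 in input. Tfap2B replicate 1 was just under its placed median there. EdgeR called all 5 of these promoters.

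The 8 largest falls were taken among regions called lower whose mean log2 signal over the 6 libraries was at or above the placed median. They had high input, which that rule favours, and tfap2B signal at most 1.21 times its placed median. The promoter of ENSGALG00000038926 at chromosome 2, 403148 to 403648, had 24.2 and 127 scaled reads in tfap2B, 138 and 115 in sox10, and 4196 and 838 in input, and its log2 difference was -5.05 ± 0.92 (SE, limma adjusted p = 0.00942). At the promoter of ENSGALG00000029211, chromosome 19, 298140 to 298640, the values were 23.3 and 60.4 in tfap2B, 112 and 72.5 in sox10, and 1496 and 481 in input (log2 difference -4.46 ± 0.72, SE, limma adjusted p = 0.00762). The other 6 of the 8 largest falls differed by -4.30 to -4.15. In all 8, tfap2B replicate 1 was below its placed median and both inputs were at least 2.15 times theirs.

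Input differed more than tfap2B between distances from the TSS. Within 1 kb of a TSS the median region had 181 and 142 scaled reads in tfap2B, 126 and 124 in sox10, and 137 and 257 in input. Over 100 kb away it had 52.8 and 58.3 in tfap2B, 109 and 119 in sox10, and 33.0 and 8.89 in input. Tfap2B signal therefore declined with distance in both replicates, that of input replicate 2 declined furthest, and sox10 stayed nearly level. The share of regions called higher was 2.56% within 1 kb (174 of 6787), 10.1% from 1 to 5 kb, 17.3% from 5 to 20 kb and 23.8% from 20 to 50 kb. Beyond that it was 23.1% from 50 to 100 kb and 23.9% over 100 kb, against 10.2% of all tested regions. The share called lower was largest from 1 to 5 kb, at 19.1%.

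**Figure D3:**
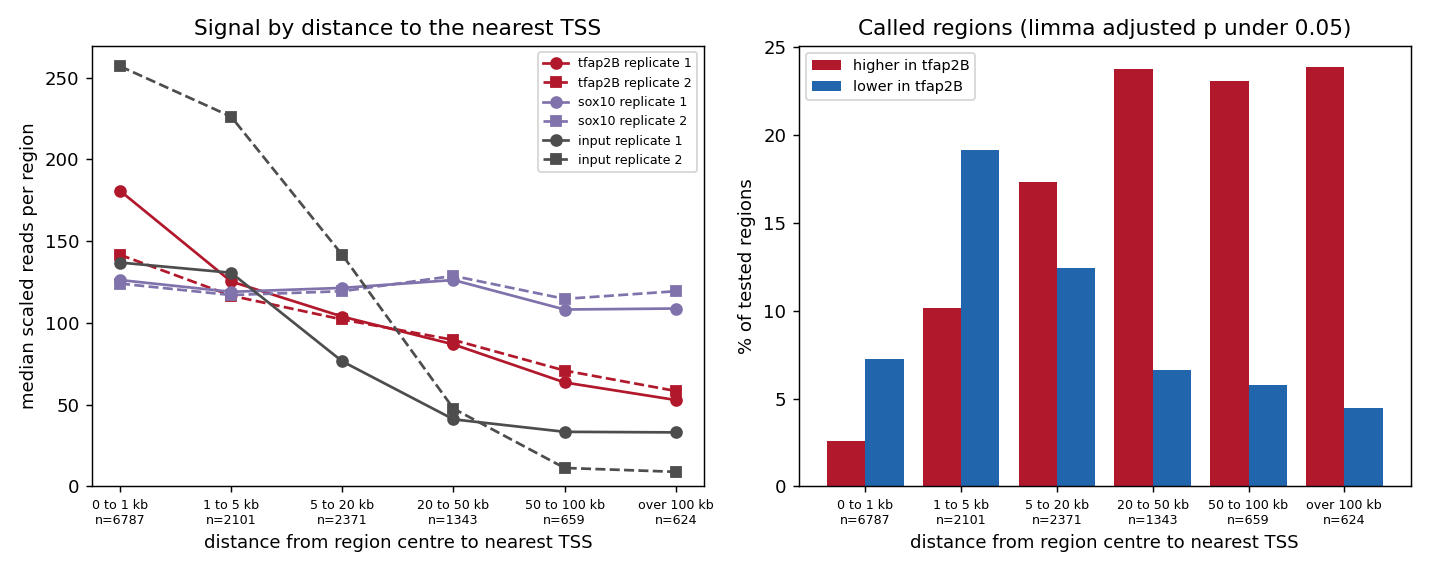
Left, median scaled reads per region for each library by distance from the region's centre to the nearest TSS. Right, the percentage of tested regions called higher or lower in tfap2B in each bin, from 2.56% higher within 1 kb to 23.9% over 100 kb.

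The promoter share among higher regions moved with input replicate 2. Promoters made up 12.3% of the higher regions (95% Wilson interval 10.7 to 14.1%), against 48.9% of all tested placed regions. Without input replicate 2 the share was 42.2% of 3860 higher regions, with a median TSS distance of 2.92 kb, and without input replicate 1 it was 10.8% of 2323 at 17.4 kb. Of the 1418 regions, 1416 were also called higher without input replicate 2 and 1417 without input replicate 1. The rest of the 3860 and of the 2323 were not called higher with all libraries.

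Within promoters tfap2B signal peaked just before the TSS, and sox10 signal was highest there too. In sox10 replicate 1 the median was as high (133) in the bin 0 to 200 bp downstream. In the 1616 regions centred 0 to 200 bp upstream the medians were 208 and 154 scaled reads in tfap2B, 133 and 133 in sox10, and 120 and 243 in input. In the 157 regions centred 800 to 1000 bp downstream they were 124 and 119 in tfap2B, 123 and 110 in sox10, and 171 and 326 in input. Both tfap2B libraries were highest in the first of these bins, in which the median log2 difference was -0.01, and both inputs were highest in the last, with -0.97. Of regions centred upstream of the TSS, 3.80% were called higher (105 of 2763). Of those centred downstream or at it, 1.71% were called higher (69 of 4024). Over all promoter regions the share was 2.56%, and over all tested placed regions 10.2%. Called lower were 169 of the 2763 upstream regions (6.12%) and 322 of the 4024 others. The bin 800 to 1000 bp upstream had the largest share called higher (9.09%, 13 of 143). In the bin where tfap2B signal peaked that share was 3.65% (59 of 1616).

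**Figure D4:**
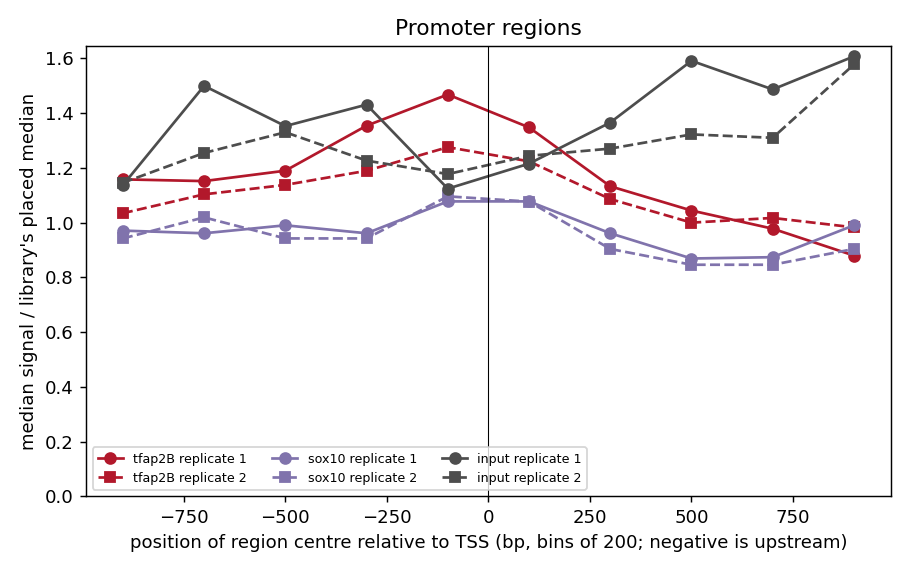
Median signal of promoter regions divided by the library's own placed median, in bins of 200 bp by the position of the region's centre relative to the TSS. The tfap2B lines peak in the bin just upstream of the TSS, where the sox10 lines are also highest, while the input lines rise downstream.

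Tfap2B signal at promoters was larger for genes with more RNA at HH10. The median promoter region of the 707 next to genes with no count had 123 and 112 scaled reads in tfap2B, 109 and 108 in sox10, and 112 and 209 in input. For the 1907 next to genes above 100 CPM the medians were 204 and 154 in tfap2B, 136 and 133 in sox10, and 143 and 278 in input. All 6 libraries were higher in the second group. The share called higher was 5.23% at genes with no count (37 of 707) and 1.89% above 100 CPM (36 of 1907), against 2.56% of all promoter regions. The share called lower was 12.7% at genes with no count and 5.45% above 100 CPM, against 7.23% of all promoter regions. Outside promoters the medians next to genes with no count were 75.2 and 85.4 in tfap2B, 108 and 103 in sox10, and 57.7 and 78.7 in input. Next to genes above 100 CPM they were 118 and 106 in tfap2B, 133 and 136 in sox10, and 61.8 and 136 in input. Outside promoters the share called higher had no steady order, at 17.1% for no count, 12.2% above 0 to 1 CPM, 16.9% from 1 to 10, 18.6% from 10 to 100 and 21.8% above 100 CPM. These levels come from 1 RNA library of an earlier stage and have no replicate check.

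**Figure D5:**
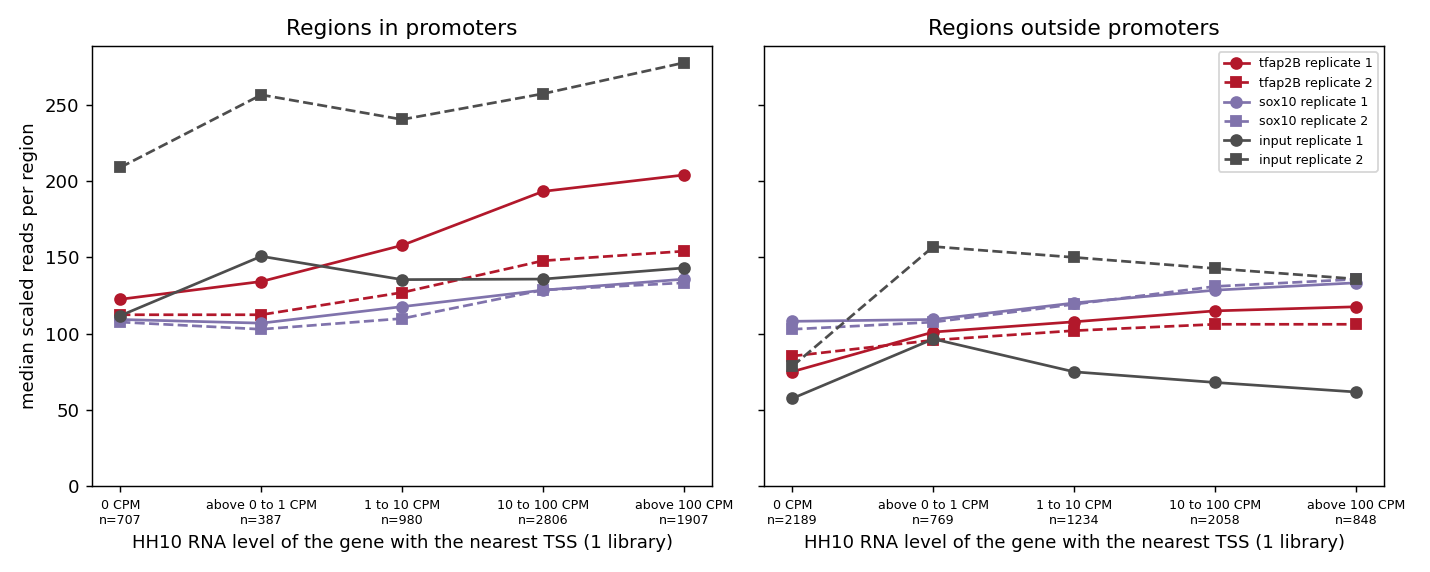
Median scaled reads per region for each library, by the HH10 RNA level of the gene with the nearest TSS, for regions in promoters (left) and outside them (right). In promoters tfap2B replicate 1 runs between 123 scaled reads at genes with no count and 204 above 100 CPM, and replicate 2 between 112 and 154.

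Across genes, 10263 had the TSS nearest to at least 1 tested region, 1275 of them with a region called higher, 1117 with one called lower and 70 with both. Most of the 1275 had a single higher region (1154), and 17 had 3 or more. The 5 genes that follow were chosen for the most higher regions, so their counts carry no test. Of all tested placed regions 10.2% were called higher. The gene with most had 5 of 5, all intergenic, on chromosome 1 between 177234154 and 177256053 and 7.95 to 29.4 kb upstream of a TSS with no count at HH10. They had 156 to 430 scaled reads in tfap2B replicate 1 and 281 to 616 in replicate 2, 215 to 620 in sox10, and 1.45 to 91.0 in input. Sox10 and tfap2B ranges overlapped there, and both lay above those of the inputs. EdgeR called 2 of the 5.

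On chromosome 18, 4 of 4 regions between 8968226 and 8993551, all intronic, were called higher, next to a TSS of a gene with 98.9 CPM. Only 1 of them lies inside that gene, and the other 3 lie inside ENSGALG00000004413, which had 29.8 CPM. The tfap2B signal of the 4 regions was modest, at 14.6 to 175 scaled reads, and that in sox10 larger, at 193 to 445, against 0.363 to 17.4 in input. At 8993051 the tfap2B libraries had only 16.1 and 14.6 and each input 1 read, so that call came with tfap2B signal far below the placed median. EdgeR called 3 of the 4.

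On chromosome 7, 4 of 6 regions next to a gene with 371 CPM were called higher, all of them intergenic and upstream, and edgeR called 3 of these 4. The 4 had 6.26 to 144 scaled reads in tfap2B, 133 to 435 in sox10, and 0.363 to 10.4 in input. Tfap2B replicate 1 was below its placed median in each. At 14436842 tfap2B had 6.26 and 115, and each input 1 read. The promoter of that gene was not called, with 311 and 217 scaled reads in tfap2B, 199 and 236 in sox10, and 183 and 401 in input (log2 difference -0.06 ± 0.51, SE, limma adjusted p = 0.934). On chromosome 2, 4 of 7 regions between 52824479 and 52949012 passed, with 94.9 to 258 scaled reads in tfap2B, 238 to 456 in sox10, and 2.54 to 59.8 in input. EdgeR called 1 of these 4, which were intergenic and 96.7 to 109 kb upstream of a TSS with no count at HH10. The uncalled regions at 52854017 and 52948512 lie in introns of another gene, ENSGALG00000040298, which had 47.8 CPM. The fifth gene, a neighbour of ENSGALG00000016680, was 1 of 13 genes with 3 higher regions and was taken for the largest mean log2 difference over its regions. It had 3 of 3, all called by edgeR too, namely the exonic regions of ENSGALG00000016680 at 108690314, 108692806 and 108695387 on chromosome 3.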

How the data were processed

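Per the submitters' processing notes the build was galGal5 and the tools included Bowtie, DiffBind, STAR 2.4.2a, Subread 1.4.5, featureCounts and DESeq2, with no role given. The method of region calling is not stated in the labels. The chromatin table as deposited holds a signal in which each library's whole reads carry a common factor, and 100% of values were whole multiples of the smallest value (tolerance 0.01 read). The deposited gene table holds counts per gene, per the file headers. Its HH10 column occurs 2 times and was used once. A further 21 columns belong to samples outside those given and did not enter any step.

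Regions were tested in limma 3.58.1 (trend on mean intensity, log2 of scaled reads with a pseudocount of 1), with 6 chromatin libraries and all regions in 1 fit (3 residual degrees of freedom). The filter was filterByExpr of edgeR 4.0.16, which kept 25281 regions. Log2 differences are tfap2B minus input on this scale, whose pseudocount shrinks changes of low regions. Against edgeR they went either way. On chromosome 3 the region at 108710618 had 10.44 here and 8.90 in edgeR, and that at 108690314 had 10.65 and 11.73. DESeq2 1.42.0 and edgeR on recovered whole reads were alternatives. Coordinates are as deposited, and whether starts count from 0 or 1 is not stated. Distances run from the region's centre to the nearest TSS, and promoters lie within 1 kb. Intervals cover counting error only.

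Regions were named by rule. Within 100 kb of a TSS and 1 per nearest gene, these were first the 10 called higher with the largest weaker tfap2B library. Next came the 8 with the largest rise and the 5 promoters with the largest rise, each given 10 reads in each input. The 8 largest falls were taken given a mean log2 signal over the 6 libraries at or above the placed median. All tested regions of the 5 genes with most higher regions were added, at any distance. Regions inside ENSGALG00000016680 were added from an earlier analysis. A fixed list of genes by symbol could not be used. Members and rules were chosen with earlier results of these data known. Replicate numbers are shared between groups, but nothing says they pair samples.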

Additional observations from a re-analysis of the deposited data

Results flagged for a closer look

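Outside the placed chromosomes, in regions that the comparison above leaves out, tfap2B was called below input more often than above it. Of 11396 tested regions on 6529 unplaced sequences, 1303 were called higher (11.4%) and 3058 lower (26.8%) by limma at an adjusted p under 0.05. In placed regions these shares were 10.2% and 9.67%. For unplaced regions only limma on the deposited scaling is given, and whether the scaling shaped this split was not tested. In placed regions the lower calls went from 1343 to 398 with total reads. Input replicate 1 had 3586313 of its 7989029 region reads in placed regions, and tfap2B replicate 1 had 2519768 of 3498728. In the 1303 regions the medians were 102 and 133 scaled reads in tfap2B, 138 and 150 in sox10, and 13.9 and 5.08 in input. No gene position was assigned to them.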

How the results depend on the processing

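As reported, 1418 regions were higher and 1343 lower, with 12.3% promoters and a median TSS distance of 15.7 kb among the higher. Leaving out 1 library each gave 0 to 3860 higher, 0 to 3003 lower, 6.18 to 42.2% promoters and 2.92 to 19.8 kb. TMM factors gave 790 lower, 19.4% promoters and 12.4 kb, DESeq2 size factors 684 lower, 21.4% and 11.6 kb, and total reads 2250 higher, 398 lower, 20.9% and 11.9 kb. The edgeR test gave 535 lower, and the DESeq2 Wald test gave 20.3% promoters and 12.8 kb. A pseudocount of 10 gave 15.8% and 13.9 kb. With tfap2B and input alone there were 815 higher and 802 lower, with 6.38% and 20.003 kb, and with placed regions alone 9.004% and 17.7 kb. An adjusted p under 0.01 gave 526 higher, 210 lower, 5.70% and 19.4 kb, and promoters taken as within 5 kb were 27.3%. The cause of these shifts was not tested.

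Further alternatives were chosen after seeing the data. Quantile normalization gave 534 lower, 33.1% promoters and 6.17 kb, regions with at least 10 reads in each input gave 404 higher, 33.2% and 4.70 kb, and 1 variance weight per group gave 468 lower and 14.1 kb. Same-numbered libraries did not deviate together in every pair (r = -0.16 for tfap2B and input, -0.07 for sox10 and input, 0.11 for tfap2B and sox10), so the numbers were not taken to pair samples. The replicate block, which was planned beforehand, gave 1118 higher and 914 lower, with 9.39% promoters. The crossed replicate block, chosen after seeing the data, gave 1796 higher and 1353 lower, with 17.4% and 13.1 kb.

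Over 44 named called regions and up to 22 alternatives, 783 values kept their call, 168 lost it and 0 changed sign. All 44 lost it with either tfap2B library left out, where no region passed at all, while their differences moved by at most 2.00 on the log2 scale. Where an input had few reads, as in the 456 higher regions where neither input passed 3 reads, depth limits the size of the difference.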

Other observations

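Promoters with starts of genes on both strands within 1 kb had more tfap2B signal than those with starts on 1 strand. The 879 regions of the first kind had medians of 213 and 158 scaled reads in tfap2B, 137 and 136 in sox10, and 149 and 299 in input. The 5908 of the second kind had 177 and 137 in tfap2B, 125 and 122 in sox10, and 135 and 251 in input. All 6 libraries were higher at the first kind, and 1.25% of it was called higher than input (11 regions), against 2.76% of the second kind (163 regions). Called lower were 5.80% of the first kind (51 regions) and 7.45% of the second (440 regions). Over all promoter regions the shares were 2.56% higher and 7.23% lower.

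By chromosome, of those with at least 100 tested regions, the share called higher than input was lowest on chromosomes 27 (3.30%, 9 of 273) and 28 (4.12%, 11 of 267) and highest on chromosome 24 (16.4%, 24 of 146), against 10.2% of all tested placed regions. On chromosome 28 the medians were 147 and 127 scaled reads in tfap2B, 121 and 119 in sox10, and 205 and 320 in input. On chromosome 1, where 12.6% were called higher (247 of 1968), they were 142 and 117 in tfap2B, 126 and 129 in sox10, and 74.3 and 160 in input. On chromosome Z the medians of all 6 libraries were below those of all placed regions. They were 92.2 and 89.5 in tfap2B, 99.7 and 88.9 in sox10, and 84.4 and 175 in input. Of the regions on Z, 19.2% were called lower (214 of 1112), against 9.67% of all tested placed regions. That share was 21.3% on chromosome 28, 19.8% on chromosome 27 and 19.3% on chromosome 25.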
